A study of Mus musculus with 30 samples.

Results

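The striatum of mice that carried the NestinTK transgene, but did not receive the drug that its kinase converts, was compared with that of mice without the transgene. It is a comparison of the transgene alone, without ablation. The libraries were chosen by their labels: 4 NestinTK+ PBS and 3 NestinTK- PBS striatum libraries, of 15 striatum libraries and 30 libraries in the series. Genes were kept when they had more than 1 CPM (a gene's counts divided by all counts of the library, times 1000000) in at least 3 of these 7 libraries, which left 14065 of the 50508 genes in the striatum table. The series asked what removal of neural precursor cells from the subventricular zone (SVZ) does to the neighbouring striatum, and its other groups received ganciclovir (GCV). All mice were adult, were labelled as C57Bl/6 and were treated with PBS or GCV through a pump under the skin. The NestinTK+ PBS mice are named T1, T2, T3 and T4 here and the NestinTK- PBS mice P1, P2 and P3, with 1 library per mouse.

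NestinTK mice carry a viral thymidine kinase under the second intron enhancer of the rat Nestin gene, which is active in neural precursors of the adult SVZ. The kinase converts GCV into a nucleotide that kills dividing cells, and in the absence of GCV it has no such substrate. The transcript of the transgene itself was not analysed here, so the genotype rests on the labels, and the endogenous mouse gene Nes checks nothing about it. The striatum consists mainly of GABAergic medium spiny neurons, which divide into a direct pathway class with the dopamine receptor gene Drd1 and an indirect pathway class with Drd2. Its local glutamatergic neurons are few, and glutamate arrives from the cortex, whose neurons express the vesicular transporter gene Slc17a7, and from the thalamus, whose neurons express Slc17a6. Cortex, septum, choroid plexus and thalamus border the striatum or lie close to it.

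Counts summed to 4121317 to 4693441 in the NestinTK- PBS libraries and to 2780471 to 4636036 in the NestinTK+ PBS libraries, with T2 the shallowest. Library T4 stood apart from the other 6: on the first principal component of log2 CPM, which held 30.3% of the variance, T4 lay at -75 and the others between -2.66 and 29.2. P2 lay apart on the second component (19.7% of the variance), at 48 against -35.7 to 15.1. Gm42418, an abundant noncoding transcript, took 4.70% to 6.35% of the counts in NestinTK- PBS and 6.51% to 10.5% in NestinTK+ PBS libraries. Under GCV the order was the reverse, with 6.29% to 8.86% in NestinTK- and 4.07% to 6.01% in NestinTK+ striatum libraries. All 3 NestinTK- PBS mice and T3 had numbers of the 34 series and T1, T2 and T4 of the 40 series. Number series and genotype can therefore be told apart only through T3 within the PBS mice. The library numbers in the sample titles were 12, 11 and 13 in P1 to P3 and 19, 20, 14 and 18 in T1 to T4. They did not overlap between the groups, T3 included, so library number and genotype cannot be told apart. The labels do not say what the number series or the library number stands for.

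The labelled tissue was checked against marker genes, and T4 went against it in part. Summed over 20 genes of medium spiny neurons, the level was 17290 to 17690 CPM in the NestinTK- PBS libraries and 16020, 16030 and 18780 CPM in T1, T2 and T3, but 8400 CPM in T4. The 8 GCV libraries of the striatum lay between 15140 and 18960 CPM, so the sum in T4 was the lowest of all 15. Summed over 11 genes of thalamus and septum, T4 had 1834 CPM and the other 6 PBS libraries 140.7 to 218.2 CPM. Over 13 genes of the choroid plexus the sum in T4 was 1560 CPM against 22.7 to 59.4 CPM, with Ttr, which encodes the transthyretin secreted by this epithelium, at 1423 CPM in T4 and 2.25 to 30.04 CPM elsewhere. The oligodendrocyte list was also highest in T4, at 8805 CPM against 4157 to 6776 CPM. The interneuron list had 857.2 CPM in T4 against 307.2 to 406.2 CPM, and Pvalb accounted for that excess. Without Pvalb its sum was 266.0 CPM in T4 and 250.9 to 332.6 CPM in the other 6 libraries. Calb2, a small part of that sum, was also highest in T4. Cortical excitatory genes had their highest sum in T2, with 412.9 CPM in T2, 276.6 CPM in T4, 129.4 CPM in T3 and 69.9 CPM in T1, against 49.2 to 73.7 CPM in NestinTK- PBS. In bulk tissue fewer cells of a type and less RNA per cell cannot be told apart.

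**Figure D1:**
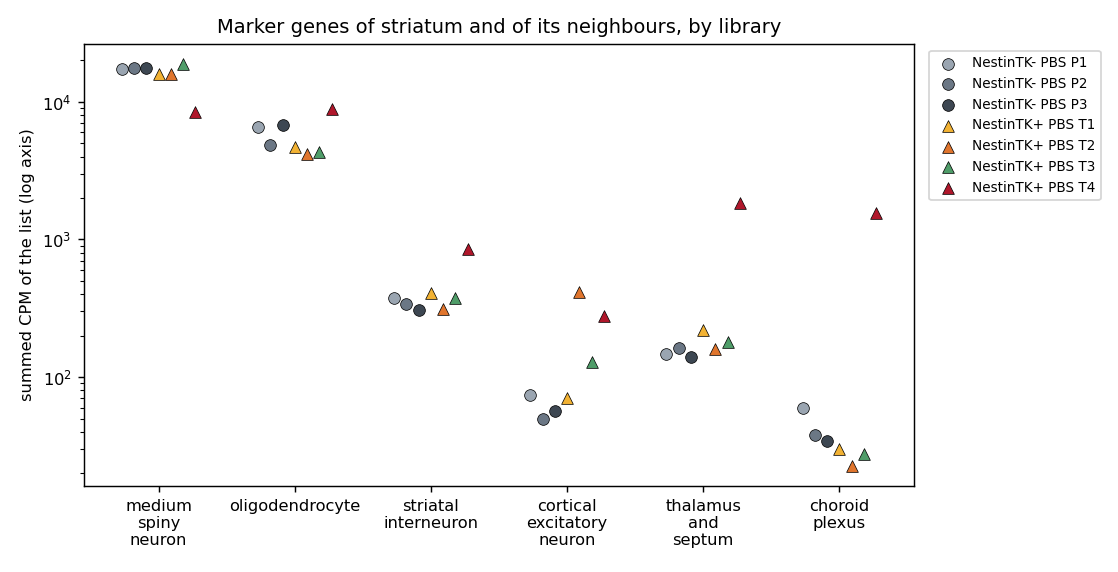
Summed CPM of 6 marker lists (horizontal axis) in each of the 7 PBS libraries, on a log axis; circles are NestinTK- PBS and triangles NestinTK+ PBS libraries. T4 is lowest for medium spiny neuron genes (8400 CPM) and highest for thalamic and septal (1834 CPM) and choroid plexus genes (1560 CPM), while T2 is highest for cortical genes (412.9 CPM).

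No gene differed between NestinTK+ PBS and NestinTK- PBS striatum at an adjusted p under 0.05 by edgeR's quasi-likelihood test, where the lowest adjusted p was 0.997. DESeq2 and limma-voom likewise gave 0 genes, with a lowest adjusted p of 0.0609 and 0.986. With no filter on low counts, 105 of 21122 genes passed an adjusted p of 0.05 by edgeR, in a fit whose shared estimate of the spread replaced that of each gene. At an unadjusted p under 0.05, 368 genes were higher (2.62% of the genes tested) and 217 lower (1.54%) by edgeR. At the study's own thresholds, an unadjusted p no higher than 0.01 with a change of 2-fold or more, 54 genes were higher (0.384%) and 9 lower (0.064%) in the NestinTK+ PBS mice. These 63 genes, 0.448% of those tested, are referred to as called in what follows, and with adjusted p-values of 0.997 none of them passed the correction for multiple tests. The 4 and 3 libraries did not overlap in 385 higher (2.74%) and 448 lower (3.19%) genes, and 44 of the 54 (0.313% of the genes tested) and all 9 of the called genes were among them. With no limit on the fold change, 71 genes (0.505%) were higher and 23 (0.164%) lower at that p.

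Low counts bear on the genes called higher. In 15 of the 54 every NestinTK- PBS library had at most 3 counts, and 15 had a mean under 5 CPM over the 7 libraries. In 16 of the 54 no NestinTK- PBS library was above 1 CPM, so that these passed the expression filter only through the NestinTK+ libraries and had to differ, among them Mki67, Gm45623, Shox2, Cbln1 and Bdnf.

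The called genes depended on T4. T4 was the highest of the 7 libraries in 38 of the 54 genes called higher, and it was the highest in 27.4% of all genes tested. In 19 of the 54 it had more than 3 times the mean of T1, T2 and T3. Without T4, 38 genes were called higher (0.276% of 13777 tested) and 19 lower (0.138%), 57 in all (0.414%), of which 24 were among the 63. Other libraries changed the counts too: 24 genes were called higher without P3, and the genes called lower were 20 without P2, 15 without T2 and 5 without P3 or without T1. The common biological coefficient of variation was 0.257 with T4 and 0.198 without it. All 43 of the genes called higher that could be tested without T4 stayed on the higher side, and all 9 called lower stayed on the lower side, T1 to T3 being part of both comparisons, and 18 and 6 of them were still called. Without T4 no gene passed an adjusted p of 0.05 by edgeR either, the lowest being 0.0838, while 397 were higher (2.88%) and 461 lower (3.35%) at an unadjusted p under 0.05.

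**Figure D2:**
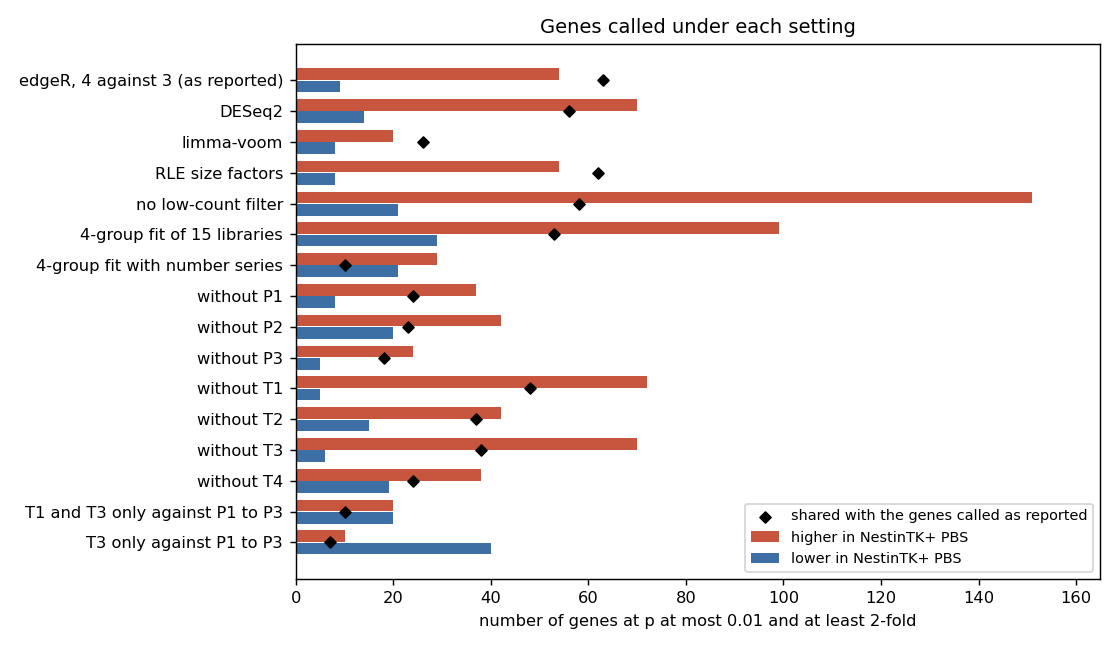
Number of genes called (horizontal axis; unadjusted p of at most 0.01 and at least 2-fold) under each setting, higher in red and lower in blue, with a diamond for the number shared with the 63 genes called as reported. The count of higher genes runs from 10 with T3 as the only NestinTK+ PBS library to 151 with no low-count filter.

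Of the 36 lists, that of thalamus and septum held the most called genes, 4, and T4 had the highest level in each of them. Slc17a6 encodes the vesicular glutamate transporter of thalamic neurons and lies at chr7:51622006-51671119 of GRCm38 (mm10). It had 2.91, 1.07 and 0.243 CPM in P1 to P3 and 11.0, 1.80, 3.88 and 239 CPM in T1 to T4. T2 lay within the range of the NestinTK- PBS libraries, and T4 was far above all others. The log2 fold change was 5.43 (standard error, SE, 1.52, and adjusted p = 0.997 by edgeR's quasi-likelihood test), and 2.05 (SE 0.748, adjusted p = 0.717) without T4, where it was not called. Shox2, a homeobox gene of the thalamus that was on none of the lists, had 0, 1 and 1 counts in P1 to P3 and 49, 1, 22 and 799 counts in T1 to T4. It did not pass the expression filter without T4. Its exons share bases with Rsrc1 on the other strand, and whether counting took account of strand is not given in the sources used here.

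Ramp3, which encodes a subunit that modifies calcitonin family receptors, had 16.3 to 22.8 CPM in NestinTK- PBS and 45.7, 36.0, 25.0 and 375 CPM in T1 to T4. All 4 NestinTK+ libraries were above the 3 others, with a log2 fold change of 2.58 that was 0.90 without T4. The thalamic and septal list of 11 genes, all of them tested, had 11 genes on the higher side and 4 called, with a median log2 fold change of 1.74, where the median over all genes tested was -0.0021. Of all 14065 genes tested, 6992 were on the higher side and 54 (0.384%) were called higher. Without T4 10 of the 11 were still on the higher side, 2 had an unadjusted p under 0.05, none was called, and the median was 0.341. In that list Rgs16, which encodes a regulator of G protein signalling, was at 135 CPM in T4 and 2.13 to 6.49 CPM in the other 6 libraries. Tcf7l2, a transcription factor gene of the thalamus, was at 356 CPM in T4 against 17.5 to 31.2 CPM, and was not called.

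Cbln1 and Cacna1g belonged to no list but showed a similar pattern. Cbln1, the gene of a secreted synaptic organiser, had 0.727, 0.426 and 0.243 CPM in P1 to P3 and 6.24, 3.96, 1.73 and 46.1 CPM in T1 to T4. Cacna1g, the gene of a T-type calcium channel, had 1.21 to 2.98 CPM in NestinTK- PBS and 4.00, 11.9, 7.12 and 41.1 CPM in T1 to T4. Both were above the NestinTK- PBS range in every NestinTK+ library. For Cacna1g the log2 fold change was 2.84 (SE 0.701, adjusted p = 0.997 by edgeR's quasi-likelihood test) and 1.83 without T4 (adjusted p = 0.557). Gabbr2, the gene of a GABA-B receptor subunit, was the 1 called gene of the 24 in the GABA synapse list, at 39.98 to 50.7 CPM against 53.7, 80.9, 58.2 and 208 CPM. Over all genes tested, 0.384% were called higher.

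Genes of cortical excitatory neurons formed another group, led by T2, T3 or T4. Slc17a7, at chr7:45163949-45176142, had the lowest p of all 14065 genes. It had 7.03, 2.56 and 4.61 CPM in P1 to P3, and 6.49, 206, 40.3 and 93.1 CPM in T1 to T4. T1 lay within the range of the NestinTK- PBS libraries, and the other 3 lay above it. The log2 fold change was 4.20 (SE 0.855, adjusted p = 0.997 by edgeR's quasi-likelihood test), and 4.17 (SE 0.764, adjusted p = 0.128) without T4. Without T1 it was the 1 gene in the table that passed an adjusted p of 0.05 (adjusted p = 0.0398 by the same test).

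Tbr1, a transcription factor gene of cortical projection neurons, had 0.728 to 2.67 CPM in NestinTK- PBS and 2.75, 62.2, 10.4 and 5.62 CPM in T1 to T4. Nr4a2, the gene of an orphan nuclear receptor expressed in deep cortex and claustrum and also listed among the immediate early genes, had 1.46 to 5.33 CPM against 5.49, 106, 51.1 and 5.62 CPM. In both genes the values of T1 and the highest NestinTK- PBS library were nearly equal. Cck, which encodes cholecystokinin, had 11.2 to 20.1 CPM against 20.7, 119, 50.04 and 197 CPM, a log2 fold change of 2.65 (2.08 without T4). Neurod2, a transcription factor gene of excitatory neurons, had 38.8 CPM in T2 and 11.2 CPM in T3, while T1 and T4 lay at 1.498 and 0.281 CPM beside 1.21 to 1.70 CPM in NestinTK- PBS. It was not called in the 7 libraries (adjusted p = 0.997 by edgeR's quasi-likelihood test) and was called without T4 (adjusted p = 0.221). In all, 7 of the 11 cortical genes were tested, all 7 were on the higher side, 2 were called, and the median log2 fold change was 2.44. Among all 14065 genes tested, 6992 were on the higher side and 0.384% were called higher. Without T4 the median was 0.905 and 3 of the 7 were called, beside 0.276% of all genes tested that were called higher.

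Some called genes were above the NestinTK- PBS range in all 4 NestinTK+ libraries, T1 included, and a few of these, Tmem9 and Sla among them, had similar levels in the 4. Tmem9, the gene of a lysosomal membrane protein at chr1:136008150-136035342, had the second lowest p. Its level was 23.3, 14.3 and 20.6 CPM in P1 to P3 and 36.7, 37.8, 42.7 and 38.2 CPM in T1 to T4. The mean was 19.4 ± 4.62 CPM (SD, n = 3) in NestinTK- PBS and 38.9 ± 2.65 CPM (SD, n = 4) in NestinTK+ PBS, so that the gap between groups exceeded the spread within each. The log2 fold change was 1.02 (SE 0.212, adjusted p = 0.997 by edgeR's quasi-likelihood test), and 1.06 (adjusted p = 0.221) without T4. With T3 alone, the NestinTK+ mouse of the same number series as P1 to P3, it was 1.16, T3 being part of both comparisons. The log2 fold change was 0.87 in the fit of all striatum libraries with the number series as a term. That is below the 2-fold limit, so Tmem9 was not called there.

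Sla, which encodes an adaptor that dampens antigen receptor signalling, had 1.94, 1.07 and 3.15 CPM in P1 to P3 and 8.99, 7.19, 6.90 and 8.43 CPM in T1 to T4. Its log2 fold change was 1.95 with T4 and without it. Gsto1, a glutathione transferase gene, had 6.54 to 7.52 CPM against 12.5, 15.5, 11.7 and 24.7 CPM, with a log2 fold change of 1.20 that was 0.95 and no longer called without T4. Cplx3, which encodes a complexin of the synaptic release machinery, had 2.91, 1.28 and 0.485 CPM in P1 to P3 and 5.24, 10.1, 5.61 and 25.3 CPM in T1 to T4. Ncald, the gene of a neuronal calcium sensor, had 104 to 111 CPM against 122, 313, 175 and 268 CPM. Cplx3 and Ncald thus had their highest values in the libraries with high cortical or thalamic sums, whereas Tmem9 and Sla did not follow those sums. Whether cortical and thalamic RNA had a part in these values was not tested. The predicted genes Gm45623 and 2310039H08Rik were also higher in all 4, with 0.999 to 3.37 CPM against at most 0.213 CPM for Gm45623, and 6.26 to 11.5 CPM against 2.43 to 4.85 CPM for 2310039H08Rik.

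Mki67, whose protein marks dividing cells, had no count in any NestinTK- PBS library and 5, 4, 9 and 12 counts in T1 to T4. It passed the expression filter only through the NestinTK+ libraries, which ties the call to the filter. With 3 counts per library as the limit that a count of 0 allows, it was at least 2.87-fold higher, and at least 2.21-fold higher without T4 (adjusted p = 0.997 by edgeR's quasi-likelihood test in the 7 libraries). Of the 10 genes of dividing cells tested, Mki67 included, 7 were on the higher and 3 on the lower side. Mcm2, a replicative helicase gene, had 0.852 to 2.42 CPM in NestinTK- PBS and 2.75, 5.04, 3.24 and 3.66 CPM in T1 to T4, with no overlap, and Top2a, a mitotic topoisomerase gene, had 4.69 to 7.77 CPM against 3.24 to 6.24 CPM. Mki67 was the 1 gene of the list that was called, beside 0.384% of all genes tested that were called higher.

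**Figure D3:**
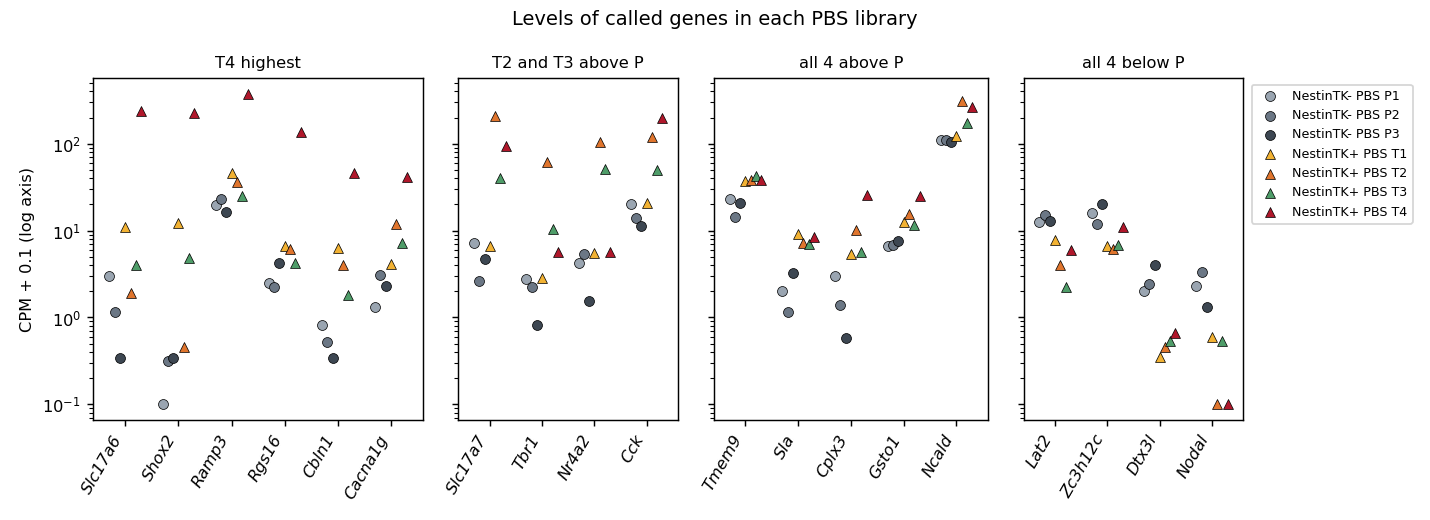
CPM plus 0.1 (log axis) of 19 called genes in each of the 7 PBS libraries. Circles are NestinTK- PBS, triangles NestinTK+ PBS, and panels group the genes by the pattern that each heading names. In the panel headed by T2 and T3, T4 was highest for Cck (196.5 CPM) and was above T3 for Slc17a7 (93.1 against 40.3 CPM). The panel headings do not exclude each other. In CPM, Shox2, Ramp3, Cbln1, Cacna1g, Tbr1, Nr4a2 and Cck also had all 4 NestinTK+ libraries above the NestinTK- PBS range. For some of them this rests on library depth. Shox2 had 1 count in each of T2, P2 and P3, Cck 83 counts in both T1 and P1, and Tbr1 11 in both. Nr4a2 had 22 and 20 counts in T1 and T4 and 25 in P2. Slc17a6 reaches 239 CPM in T4 alone, Slc17a7 reaches 206 CPM in T2, and Tmem9 lies between 36.7 and 42.7 CPM in all 4 NestinTK+ libraries.

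The 9 genes called lower were of low level, and in 4 of them no NestinTK+ library had more than 3 counts. Dtx3l, Nodal and Gm44423 were above 1 CPM in no NestinTK+ library. They passed the expression filter only through the NestinTK- PBS libraries and so had to differ. Lat2, which encodes a membrane adaptor of immune cells and lies at chr5:134600022-134615025, had 12.6, 14.9 and 12.9 CPM in P1 to P3 and 7.74, 3.96, 2.16 and 5.90 CPM in T1 to T4. The log2 fold change was -1.43 (SE 0.391, adjusted p = 0.997 by edgeR's quasi-likelihood test), and it was -1.50 without T4 (adjusted p = 0.506). Its exons share bases with Rfc2 on the other strand. Zc3h12c, the gene of an RNA-degrading enzyme, had 15.8, 11.7 and 19.9 CPM against 6.49, 6.11, 6.69 and 11.0 CPM, a log2 fold change of -1.05 (-1.24 without T4). Here T4 was the NestinTK+ library nearest to the NestinTK- PBS range. Dtx3l, a ubiquitin ligase gene that shares exon bases with Parp9 on the other strand, had 8, 11 and 16 counts in P1 to P3 and 1, 1, 2 and 2 in T1 to T4. Nodal, the gene of a TGF-beta family ligand, had 9, 15 and 5 counts against 2, 0, 2 and 0. Among the predicted genes, Gm44423 had 15, 10 and 23 counts against 1, 2, 3 and 1, and Gm10115 had 8.74 to 14.5 CPM against 0.562 to 5.40 CPM. Lat2 and Zc3h12c stayed called without T4, and Nodal did not.

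Medium spiny neuron genes were on the lower side with T4 and were not without it. All 20 genes of the list were tested and lower in the fit of 7 libraries, with a median log2 fold change of -0.199, but none was called and none had an unadjusted p under 0.05. Without T4, 10 were higher and 10 lower, and the median was 0.0041. Ppp1r1b, which encodes the dopamine-regulated phosphatase inhibitor DARPP-32, had 2545, 2897 and 2517 CPM in P1 to P3, 2424, 2491 and 2609 CPM in T1 to T3 and 1317 CPM in T4. Its log2 fold change was -0.24, and -0.04 without T4. Drd1 had 862 to 930 CPM in NestinTK- PBS, 820, 824 and 899 CPM in T1 to T3 and 373 CPM in T4. Drd2 had 91.5 to 122 CPM against 102, 107 and 142 CPM in T1 to T3 and 48.1 CPM in T4. Penk, the enkephalin gene of the indirect pathway class, had 2469 to 2894 CPM against 2251 to 2744 CPM in T1 to T3 and 1186 CPM in T4. For these 4 genes T1, T2 and T3 overlapped the NestinTK- PBS libraries and T4 lay below all of them. Ebf1, a transcription factor gene of the direct pathway class, had 25.1 to 37.1 CPM against 17.7 to 28.7 CPM, a log2 fold change of -0.54, and -0.43 without T4, and was not called.

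Among the interneuron genes T4 stood apart in Pvalb and, at lower levels, in Calb2 and Gbx2. Pvalb, the parvalbumin gene of fast-spiking interneurons and also of thalamic and septal cells, had 103, 61.8 and 56.3 CPM in P1 to P3 and 116, 44.6, 40.6 and 591 CPM in T1 to T4. Its log2 fold change was 1.39, and -0.079 without T4. Calb2 had 3.88 to 4.47 CPM in NestinTK- PBS, 1.94 to 3.25 CPM in T1 to T3 and 36.55 CPM in T4. Gbx2 had at most 1.21 CPM in NestinTK- PBS and 0.749, 1.08, 2.16 and 6.47 CPM in T1 to T4. Of 16 interneuron genes tested, 10 were on the higher side with a median of 0.205, and none was called. Gad1, which encodes an enzyme of GABA synthesis, had 276 to 341 CPM in NestinTK- PBS and 263, 180, 282 and 412 CPM in T1 to T4. The GABA synapse list had a median of 0.0069 (24 genes) and the glutamate synapse list one of 0.031 (20 genes), with no gene of the latter called.

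Oligodendrocyte genes differed in opposite ways in T4 and in the other NestinTK+ PBS libraries. Of 19 genes, 17 were on the lower side with T4, with a median log2 fold change of -0.187 and none at an unadjusted p under 0.05. Without T4 all 19 were lower, with a median of -0.413, and 10 had an unadjusted p under 0.05. Over all 13777 genes tested the median was -0.0058, and 3.35% were lower at that p. Mbp, a myelin protein gene, had 1065, 751 and 1167 CPM in P1 to P3, 767, 739 and 740 CPM in T1 to T3 and 1595 CPM in T4. P2 was thus as low as T1 to T3. Gjc3, the gene of an oligodendrocyte connexin, had 101, 50.5 and 85.9 CPM against 46.2, 41.0 and 37.1 CPM in T1 to T3 and 122 CPM in T4. Its log2 fold change was -0.37 with T4 and -0.88 without it (adjusted p = 0.375 by edgeR's quasi-likelihood test). Qdpr, which encodes a pteridine reductase rich in oligodendrocytes, had 307 to 365 CPM against 227, 208 and 225 CPM and 453 CPM in T4. The summed list was 4827 to 6776 CPM in NestinTK- PBS and 4157 to 4653 CPM in T1 to T3, and it was 3453 to 4458 CPM in the 3 NestinTK- GCV libraries, which carry no transgene.

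Among astrocyte genes, 8 of 19 were on the higher and 11 on the lower side, with a median of -0.031 and none called. Gfap, which encodes the filament protein of reactive and periventricular astrocytes, had 18.2, 16.6 and 19.7 CPM in P1 to P3, 7.24, 10.1 and 7.12 CPM in T1 to T3 and 30.6 CPM in T4. Without T4 it was called lower with a log2 fold change of -1.13 (SE 0.287, adjusted p = 0.413 by edgeR's quasi-likelihood test), and with T4 it was -0.42. Ttr had a log2 fold change of 4.11 with T4 and of -1.60 without it, where it was called lower (adjusted p = 0.413 by edgeR's quasi-likelihood test), its levels being 30.04, 16.8 and 12.9 CPM in P1 to P3 and 2.25, 7.55 and 9.28 CPM in T1 to T3. Gjb6, an astrocyte connexin gene, had 44.7 to 50.07 CPM against 62.4, 52.9, 56.1 and 108 CPM, with no overlap and a log2 fold change of 0.56.

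The other non-neuronal lists held no called gene. Of 20 microglia genes 13 were on the lower side, with a median of -0.133, and Laptm5, a lysosomal gene of myeloid cells, had 85.3, 97.4 and 94.4 CPM in P1 to P3 and 70.4, 65.1, 75.9 and 67.2 CPM in T1 to T4. Its groups did not overlap, with a log2 fold change of -0.39 (adjusted p = 0.997 by edgeR's quasi-likelihood test). Of 17 endothelial genes 7 were higher and 10 lower, with a median of -0.051: Slco1a4, a transporter gene of the blood-brain barrier, had 30.3 to 36.6 CPM against 38.8 to 54.0 CPM, and Tie1, an endothelial receptor gene, 3.41 to 4.13 CPM against 0.719 to 2.81 CPM. Mural cells (10 genes), ependymal cells (12), meningeal fibroblasts (7) and oligodendrocyte precursors (12) had medians of -0.179, -0.185, -0.238 and 0.074, and no gene of these lists was called.

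**Figure D4:**
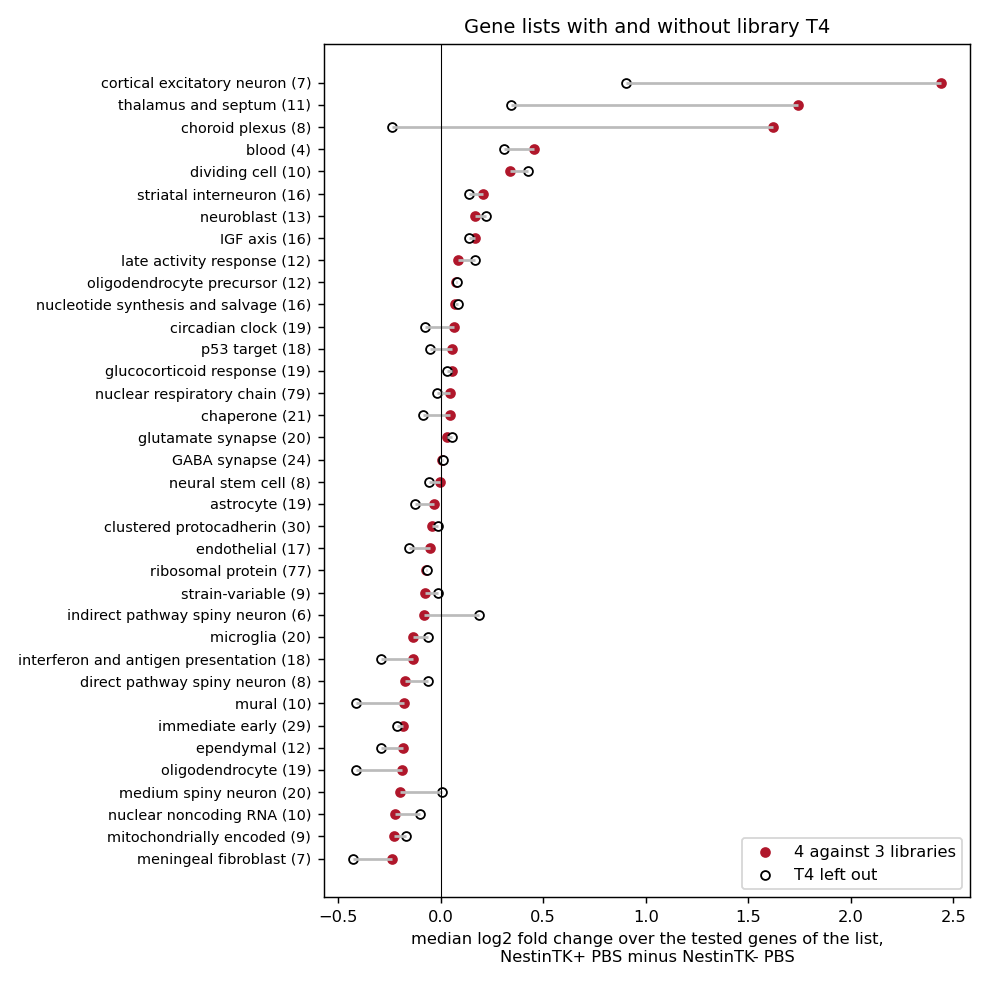
Median log2 fold change (horizontal axis, NestinTK+ PBS minus NestinTK- PBS) over the tested genes of each of 36 lists, whose number is in brackets; filled points are the fit of 4 against 3 libraries and open points the fit without T4. The cortical, thalamic and choroid plexus lists lie at 2.44, 1.74 and 1.62 with T4 and at 0.905, 0.341 and -0.239 without it.

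No gene was called in the neural stem cell and neuroblast lists or in the IGF axis that the study followed. Nes had 1.45, 6.61 and 4.85 CPM in P1 to P3 and 6.24, 0.719, 4.96 and 5.62 CPM in T1 to T4, with a log2 fold change of 0.05 (SE 0.619). Of 8 neural stem cell genes 4 were higher and 4 lower (median -0.0013), and of 13 neuroblast genes 10 were higher (median 0.169), with none called in either list. Dcx, the doublecortin gene of neuroblasts, had 18.5 to 26.5 CPM against 22.2 to 29.9 CPM, a log2 fold change of 0.17 (SE 0.223). Dlx2, a transcription factor gene of the same lineage, had 1.92 to 10.2 CPM against 3.67 to 8.99 CPM. Igfbpl1, which encodes a secreted relative of the insulin-like growth factor (IGF) binding proteins, had 10.4, 10.7 and 13.4 CPM against 5.99, 15.1, 8.84 and 8.72 CPM, with a log2 fold change of -0.25 (SE 0.334). Igf1r, the IGF-1 receptor gene, had 82.5 to 89.2 CPM against 69.7, 72.7, 72.9 and 115 CPM.

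Of 16 IGF axis genes tested, 11 were on the higher side, with a median of 0.165, and none was called. Htra1, which encodes a protease that cleaves IGF binding proteins, had 65.4, 69.3 and 63.1 CPM in P1 to P3 and 84.4, 86.3, 100.1 and 86.3 CPM in T1 to T4. Its groups did not overlap, with a log2 fold change of 0.45 (SE 0.152, adjusted p = 0.997 by edgeR's quasi-likelihood test), below the 2-fold limit. Igf1 had 1.71 to 2.91 CPM against 3.24 to 6.19 CPM, again without overlap but with 8 to 22 counts per library. Igfbp2, an IGF binding protein gene also expressed in choroid plexus, had 3.40 to 8.95 CPM against 11.2, 13.7 and 5.39 CPM in T1 to T3 and 43.0 CPM in T4. Genes of nucleotide synthesis and salvage, on whose pathway a thymidine kinase acts, had 9 of 16 on the higher side (median 0.071), and targets of p53, which respond to DNA damage, 10 of 18 (median 0.057). Neither of these lists had a called gene or a gene at an unadjusted p under 0.05.

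Lists that report the state of the tissue at sampling had few called genes. Of 29 immediate early genes 19 were lower, with a median of -0.183. Nr4a2 was the 1 that was called, beside 0.384% of all genes tested that were called higher. Egr1 had 1152, 396 and 638 CPM in P1 to P3 and 611, 542, 472 and 385 CPM in T1 to T4, and Egr2 29.8, 4.69 and 11.7 CPM against 11.0, 2.88, 5.61 and 6.47 CPM. Both of these activity-dependent transcription factor genes were highest in P1. Inhba, an activin subunit gene of the late activity response, had 24.2, 30.7 and 25.2 CPM against 13.2, 18.3, 16.0 and 11.0 CPM, with no overlap, a log2 fold change of -0.86 and less than a 2-fold difference. Bdnf, the gene of a neurotrophin made by cortical rather than striatal cells, was called higher on 0 to 3 counts in NestinTK- PBS and 1 to 21 in NestinTK+ PBS libraries, with T1 overlapping. Clock genes (19 tested), glucocorticoid response genes (19) and chaperones (21) had medians of 0.063, 0.054 and 0.045 and none called. Of 18 interferon and antigen presentation genes 11 were lower, with a median of -0.134, and Irf9, a transcription factor gene of that response, had 17.7 to 20.8 CPM against 9.28 to 14.4 CPM.

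Of 9 mitochondrially encoded genes tested 8 were lower, with a median of -0.227, and mt-Nd6 had 111, 103 and 122 CPM in P1 to P3 and 76.2, 66.9, 70.8 and 90.5 CPM in T1 to T4. Its log2 fold change was -0.54, below the 2-fold limit. Nuclear genes of the respiratory chain (79 tested) had a median of 0.047, among them Uqcrc1, a complex III gene, at 84.7 to 96.9 CPM against 110 to 127 CPM. Ribosomal protein genes (77 tested, median -0.071) and clustered protocadherins (30 tested, median -0.043) had none called. Of 10 nuclear noncoding RNAs 7 were lower (median -0.221), with Neat1 at 121 to 213 CPM against 78.6, 134, 88.0 and 153 CPM and Kcnq1ot1 at 23.7 to 31.1 CPM against 14.7 to 22.2 CPM. Genes that vary between laboratory mouse strains (9 tested) had a median of -0.075 and none called.

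Of the 63 called genes, 62 had a single position in the GENCODE annotation of GRCm38, and they lay on every autosome but chromosome 18 and on the X chromosome. Over all genes tested 0.448% were called. Chromosome 7 held 8 (0.742% of its 1078 tested genes), chromosomes 2 and 11 held 7 each (0.655% and 0.642%), and chromosome 18 held 0 of 358. Whether the called genes were spread unevenly over the chromosomes was not tested. The closest neighbours were Car10 and Cacna1g on chromosome 11, 0.807 Mb apart. The position of the transgene is not given in the sources used here.

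The number series of the mice was examined in 2 further fits, each of which also changed the libraries used. With T3 as the only NestinTK+ PBS library, which compares 4 mice of the 34 series, 10 genes were called higher and 40 lower, of which 7 were among the 63, and no gene passed an adjusted p of 0.05 by edgeR (lowest 0.148). The lone T3 is assumed there to vary as the NestinTK- PBS libraries do. The 38 genes called higher that could be tested this way were all on the higher side, and the 9 called lower all on the lower side, T3 being part of both comparisons. In a fit of all 15 striatum libraries with the series as a term, 29 genes were called higher and 21 lower, and 10 of the 63 were shared, where the same fit without that term called 99 higher and 29 lower and shared 53. Cortical genes were high in T3 too: its log2 fold change for Slc17a7 was 3.11 and for Nr4a2 3.80.

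The transgene was also compared with its absence in the striatum of other mice, those that received GCV, where ablation is added. No library is shared between these comparisons. In NestinTK+ GCV against NestinTK- GCV striatum (5 and 3 libraries), 365 of 14536 genes were called (2.51%) and 1056 passed an adjusted p of 0.05 (7.26%). Of the 63 genes called under PBS, 56 were tested there, 17 (30.4%) had the same sign and 5 were called in the opposite direction, beside the same sign in 45.7% of the 13772 genes tested in both. The NestinTK- GCV library G3 had 700.7 CPM on the cortical list against 59.6 and 145.3 CPM in G1 and G2. Without G3, 3.17% of the genes were called and 6.86% passed an adjusted p of 0.05, and 31 of 54 (57.4%) had the same sign, beside 46.9% of the 13696 genes tested in both, and 2 were called in the same direction. Of the 57 genes called without T4, 52 were tested, of which 26.9% had the same sign under GCV and 51.9% without G3, beside 44.1% and 44.5% of all genes. Slc17a7 had a log2 fold change of 4.20 under PBS, -2.25 under GCV and 0.06 under GCV without G3. Tmem9 had 1.02, -0.32 and -0.24. For Lat2 the values were -1.43, 0.28 and 0.69, and for Zc3h12c -1.05, -0.30 and -0.51.

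**Figure D5:**
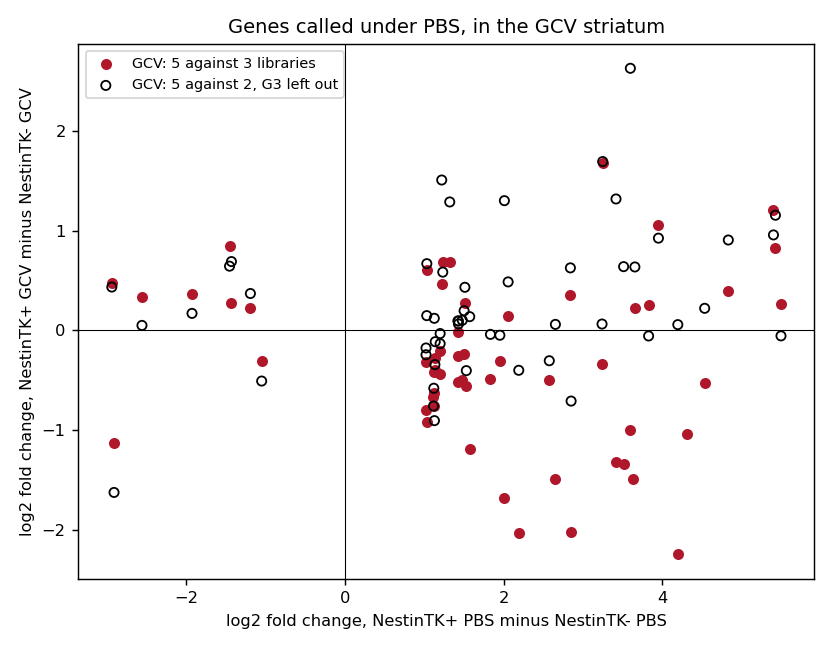
Log2 fold change of the genes called under PBS (horizontal axis) beside their log2 fold change in NestinTK+ GCV against NestinTK- GCV striatum (vertical axis); filled points use all 8 GCV libraries and open points leave out G3. Of the 56 genes tested with G3, 17 have the same sign in both, and of the 54 tested without it, 31.

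The interaction of genotype and treatment, which tests whether the transgene difference under PBS differs from that under GCV, gave 126 of 15419 genes at an adjusted p under 0.05 (0.817%) by edgeR's quasi-likelihood test over all 15 libraries. That count was 476 (3.12%) without T4, 635 (4.18%) without T4 and G3 and 485 (5.15%) by DESeq2 over all libraries. It was 0 without P3, 1 (0.00652%) without P1, 13 (0.0851%) without T2, 52 (0.338%) without T1, 90 (0.587%) without T3 and 550 (3.59%) without P2. The count therefore changed with single libraries of both genotypes. Among the named genes, Tmem9 (interaction log2 of -1.32, adjusted p = 0.0271), Slc17a7 (-6.43, adjusted p = 0.0271), Cplx3 (-4.85, adjusted p = 0.0211), Cck (-4.13, adjusted p = 0.0346) and Ncald (-1.79, adjusted p = 0.0356) passed by that test. A negative value means that the difference was lower under GCV than under PBS. These genes were named for their low p under PBS. The same PBS libraries are part of the interaction, so its values for them are not independent of that choice.

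In the SVZ of the same 7 mice, sequenced with another kit, 49 of 14661 genes were called between NestinTK+ PBS and NestinTK- PBS (0.334%), none passed an adjusted p of 0.05 by edgeR, and 438 had an unadjusted p under 0.05 (2.99%). Of the 63 genes called in the striatum, 47 were tested in the SVZ, 25 (53.2%) had the same sign and none was called there in either direction, beside the same sign in 51% of the 12964 genes tested in both. Tmem9 had 124, 83.3 and 21.6 CPM in P1 to P3 and 113, 72.0, 44.7 and 101 CPM in T1 to T4 in the SVZ, a log2 fold change of 0.04 (adjusted p = 1 by edgeR's quasi-likelihood test). The SVZ groups overlapped for this gene, unlike those of the striatum. Cacna1g had 0.151, 1.90 and 0.671 CPM in P1 to P3 in the SVZ and 3.56, 3.37, 7.78 and 71.5 CPM in T1 to T4. Its log2 fold change there was 4.35. T4 was thus highest for Cacna1g in both tissues, while Slc17a6, Ramp3 and Rgs16, highest in T4 in the striatum, were not highest in T4 in the SVZ. Ttr, the choroid plexus gene, had 44880, 98810 and 109 CPM in P1 to P3 in the SVZ. It had 98260, 1.33, 789 and 211 CPM in T1 to T4 there. Whether these differences in choroid plexus RNA bear on the SVZ comparison was not tested.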

How the data were processed

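RNA was taken from the striatum and SVZ of 15 mice, 1 library per mouse and tissue (QuantSeq 3' FWD for striatum, SMART-Seq v4 for SVZ). The authors trimmed reads with Trimmomatic (0.36 in the submitters' processing notes, while the study's methods name another version), aligned them with STAR 2.5.3a to mm10 with Gencode annotation and counted reads per gene with featureCounts, per the labels and the methods. The authors deposited raw, unnormalised counts. Whether counting took account of strand is not given in the sources used here.

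The counts of the 7 PBS striatum libraries were fitted with edgeR 4.0.16 (TMM factors, quasi-likelihood test, R 4.3.3) after a filter of more than 1 CPM in at least 3 libraries. Unless another is named, p-values come from that test, and adjusted p-values are Benjamini-Hochberg values over every gene in the fit. Log2 CPM used a prior count of 2. The SVZ and GCV libraries were fitted separately with the same settings, and the interaction over all 15 striatum libraries. The fits were tested on simulated data. Alternatives used DESeq2 1.42.0, limma-voom 3.58.1, RLE size factors, no filter, fits of 15 libraries, a term for the mouse number series and each library left out. The fits with T1 and T3 alone, with T3 alone and without G3 were chosen after seeing the data. Positions came from the GENCODE annotation of GRCm38, in which 97.8% of the tested genes had 1 position.

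The comparison and the 36 gene lists were chosen with earlier results of these data known, and lists are described by counts and medians without a test. Genes are named when called with groups that do not overlap (up to 10 with a gene name and 2 predicted genes per direction, by lowest p), when first in a list or among its 3 lowest p-values, or when central to the study's question. Neurod2, Pls1 and Fnbp1 were added after their values were seen, and Car10 and Gm42418 are named for the counts they bear on. Counting error limits genes near 1 CPM, which had about 3 to 5 counts per library. Replicates are separate mice.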

Additional observations from a re-analysis of the deposited data

Results flagged for a closer look

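In the 4 NestinTK+ PBS libraries, 16 of 99 checked levels (named genes and summed lists) had 1 library far from the other 3 by Dixon's criterion. Chance flags about 1 in 20 independent levels. These levels are not independent, since summed lists hold named genes and 1 library can be flagged in many levels at once, so that rate is no yardstick here. T4 was that library in 14 of the 16. It was far above the others for Rgs16 (135 CPM), Tcf7l2 (356 CPM), Mbp (1595 CPM), Qdpr (453 CPM), Igf1r (115 CPM) and Zc3h12c (11.0 CPM), and far below them for Ppp1r1b (1317 CPM), Drd1 (373 CPM) and Rgs9 (157 CPM). Among summed lists it was far above for thalamus and septum (1834 CPM), choroid plexus (1560 CPM), oligodendrocytes (8805 CPM) and the IGF axis (667 CPM), and far below for indirect pathway neurons (1746 CPM). The others were Nes in T2 (0.719 CPM), below the other 3 libraries, and Htra1 in T3 (100.1 CPM), above them.

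By the interaction term of edgeR's quasi-likelihood test, the genotype difference under PBS differed from that under GCV in 5 of the genes that the text names. The PBS libraries that led to their naming are part of that test. The number of genes passing it was 0 without P3 and 1 without P1. The 5 genes were Cplx3 (adjusted p = 0.0211), Slc17a7 and Tmem9 (adjusted p = 0.0271 each), Cck (adjusted p = 0.0346) and Ncald (adjusted p = 0.0356). Of these 5 genes, 4 were highest among the NestinTK- GCV libraries in G3, the library with the high cortical sum. Cplx3 had 1.86, 7.74 and 26.4 CPM and Ncald 138, 173 and 403 CPM in G1 to G3. Slc17a7 and Cck were in G3 at 398 and 210 CPM, against 4.53 and 56.6 CPM for Slc17a7 and 10.9 and 50.04 CPM for Cck in G1 and G2. Tmem9 was at 25.8, 44.0 and 40.1 CPM in G1 to G3, so that 2 of these libraries without the transgene were within or above the range of NestinTK+ PBS.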

How the results depend on the processing

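The counts of called genes, 54 higher and 9 lower, changed with most settings. DESeq2 gave 70 and 14, limma-voom 20 and 8, RLE size factors 54 and 8, a p of at most 0.01 with no fold limit 71 and 23, the fit of 15 libraries 99 and 29, and that fit with the number series as a term 29 and 21. T1 and T3 alone gave 20 and 20, and T3 alone 10 and 40. With 1 library left out the counts lay between 24 (without P3) and 72 (without T1) higher and between 5 (without P3 or T1) and 20 (without P2) lower. With no low-count filter 151 and 21 genes were called, and 102 higher and 3 lower genes passed an adjusted p of 0.05, led by Ttr, Shox2 and Slc17a6. In that fit edgeR's prior degrees of freedom, which set how far each gene's own spread is replaced by the common one, were infinite, against 8.70 with the filter. In the other fits of the 7 libraries or fewer the adjusted count was 0, except 1 (higher) without T1, so it lay between 0 and 1 higher and at 0 lower over the fits that leave out a library. The interaction gave 126 genes, 485 of 9426 with DESeq2, 635 without T4 and G3, and 0 (without P3) to 550 (without P2) with 1 library left out. The share of the 63 genes with the same sign under GCV, 30.4% (45.7% over all genes), was 57.4% without G3 (46.9% over all genes).

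Among the named genes, some that were not called with the 7 libraries changed sign. Ttr was at -0.94 with the series term, -1.72 with T1 and T3 alone, -1.08 with T3 alone and between -1.60 (without T4) and 4.54 with 1 library left out. Pvalb was at -0.85 with T3 alone and between -0.079 (without T4) and 1.74 with 1 library left out. Drd2 was at 0.30, 0.28 and 0.47, Penk at 0.044, 0.067 and 0.055, and Dlx2 at -0.82, -0.40 and -0.45 with the series term, T1 and T3 alone, and T3 alone. Gad1 was at 0.13 with the series term, Drd1 at 0.030 and Igfbp2 at -0.37 with T3 alone. The causes were not tested. No named gene that was called changed sign in these fits. No paired analysis was possible because the groups compared are different mice.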

Other observations

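Among the genes of lowest p once T4 was left out, 2 were singled out after their values were seen. Pls1, which encodes an actin-bundling protein, had 35.4, 18.5 and 24.02 CPM in P1 to P3 and 7.74, 4.68 and 8.84 CPM in T1 to T3, while T4 was at 31.5 CPM. Its log2 fold change was -1.79 without T4 (adjusted p = 0.0838 by edgeR's quasi-likelihood test) and -0.98 with it. Fnbp1, which encodes a membrane-bending protein of endocytosis, had 318, 260 and 293 CPM in P1 to P3, 195, 171.9 and 159 CPM in T1 to T3 and 436 CPM in T4, and its log2 fold change was -0.69 without T4 (adjusted p = 0.205), below the 2-fold limit, and -0.28 with it. Neither passed the correction for multiple tests, and both had T4 at or above the level of most NestinTK- PBS libraries.

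The remaining lists had small numbers of tested genes. The direct pathway list (8 tested) had a median log2 fold change of -0.172 with T4 and -0.063 without it, and the indirect pathway list (6 tested) had -0.080 and 0.188. The late activity response list (12 tested) had a median of 0.086 with 1 gene called, and the blood list (4 tested) a median of 0.457 with none called. Over all genes tested, 0.448% were called.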
